A study of Rattus norvegicus with 3 samples.

Results

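The Notch pathway was followed through 10 genes, namely the receptors Notch1, Notch2, Notch3 and Notch4, the ligands Jag1, Jag2 and Dll1, the receptor-modifying enzyme Lfng and the targets Hes1 and Hey1. They were chosen by name, and the probes of the array were assigned to them by RefSeq accession. A probe was named for 8 of the 10 genes, each by a single probe printed once per array, among 13351 genes named in all. Jag2 and Hey1 had no probe named in this way and are not analysed here. Each cell type was hybridized to 1 array. COS1NR is an osteosarcoma line and MFH1NR a malignant fibrous histiocytoma line, both established from tumors that 4-HAQO had induced in F344 rats, and the methods state that both carry a p53 mutation. The mesenchymal stem cells (MSCs) came from the femur bone marrow of F344 rats, grew out as a monolayer on plastic and were not sorted by surface markers, so other adherent marrow cells were not removed. The age of the animals is not given in the sources used here. The medium of MSCs had more serum than that of both lines.

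Notch receptors sit in the cell membrane and are activated by Jagged and Delta ligands on a neighboring cell. Ligand binding lets an ADAM protease and then the gamma-secretase complex cut the receptor, and the released intracellular domain joins the DNA-binding protein Rbpj and Mastermind proteins in the nucleus to switch on repressors of the Hes and Hey families. In the skeletal lineage the pathway is known to restrain osteoblast differentiation, and Notch3 is known as a receptor of pericytes and smooth muscle cells.

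The authors deposited processed intensities, which are corrected for background within an array and not scaled between arrays. Dividing by the 75th percentile of the array (589 for MSCs, 774 for COS1NR and 994 for MFH1NR) gave what is called the scaled intensity. Between 56.6% and 59.7% of the spots were well above background by the call of the scanner software. Without replicate arrays the spread between cultures is unknown, and no difference was tested. The error given with each intensity is the one the software assigned to that spot. It was at most 20.1% of the intensity for members well above background, and it leaves out cultures, labeling and hybridization. Where a gene had 2 probes or more well above background on all arrays, the log2 ratio of a further probe was compared, over 1895 genes. It was off by a median of 0.28 between COS1NR and MSCs, 0.31 between MFH1NR and MSCs and 0.15 between the lines. In 1 gene in 10 it was off by more than 0.91, 0.99 and 0.59, in the same order. The slide of MSCs was not the one that carried both lines, so in ratios to MSCs the effects of slide and of cell type cannot be told apart.

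Markers listed for several cell types differed between the arrays. All 13 of 13 macrophage markers were well above background in MSCs, against 7 in COS1NR and 7 in MFH1NR, and their scaled intensities summed to 168.7, 9.31 and 4.75 in the same order. Lyz2, Adgre1, Itgam, C1qa, Ptprc and Cd163 were not well above background in either line, while Cd68, Csf1r, Cd14, Tyrobp, Fcer1g, C1qb and C1qc were so in both. For pericytes and smooth muscle, 8 of 8 markers with a probe were well above background in MSCs and 5 in each line, with sums of 236.6, 5.0 and 14.0 in the same order. Of 9 endothelial markers with a probe, 4 were well above background in MSCs (Cdh5, Kdr, Tie1 and Esam), 3 in COS1NR (Cdh5, Kdr and Flt1) and 1 in MFH1NR (Kdr), and their sums were 1.09, 0.283 and 0.0813. Pecam1, Tek, Emcn and Erg were not well above background on any array. The label of osteosarcoma was checked against 6 osteoblast markers with a probe. Col1a1, Spp1, Alpl, Ibsp and Bglap were well above background in COS1NR, and the osteoblast factor Sp7 was not. In MFH1NR all 6 were, and the osteoblast sum, from 217.8 in MSCs, came to 144.2 for COS1NR and to 262.2 for MFH1NR. Spp1 carried the higher sum of MFH1NR, and Col1a1, Alpl, Ibsp and Bglap had lower scaled intensities there than in MSCs. The part of other cells in the ratios below was not tested. In RNA of whole cultures, markers carried by MSCs themselves and by other cells cannot be told apart. Neither can a smaller number of cells of a type and less RNA per cell.

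**Figure D1:**
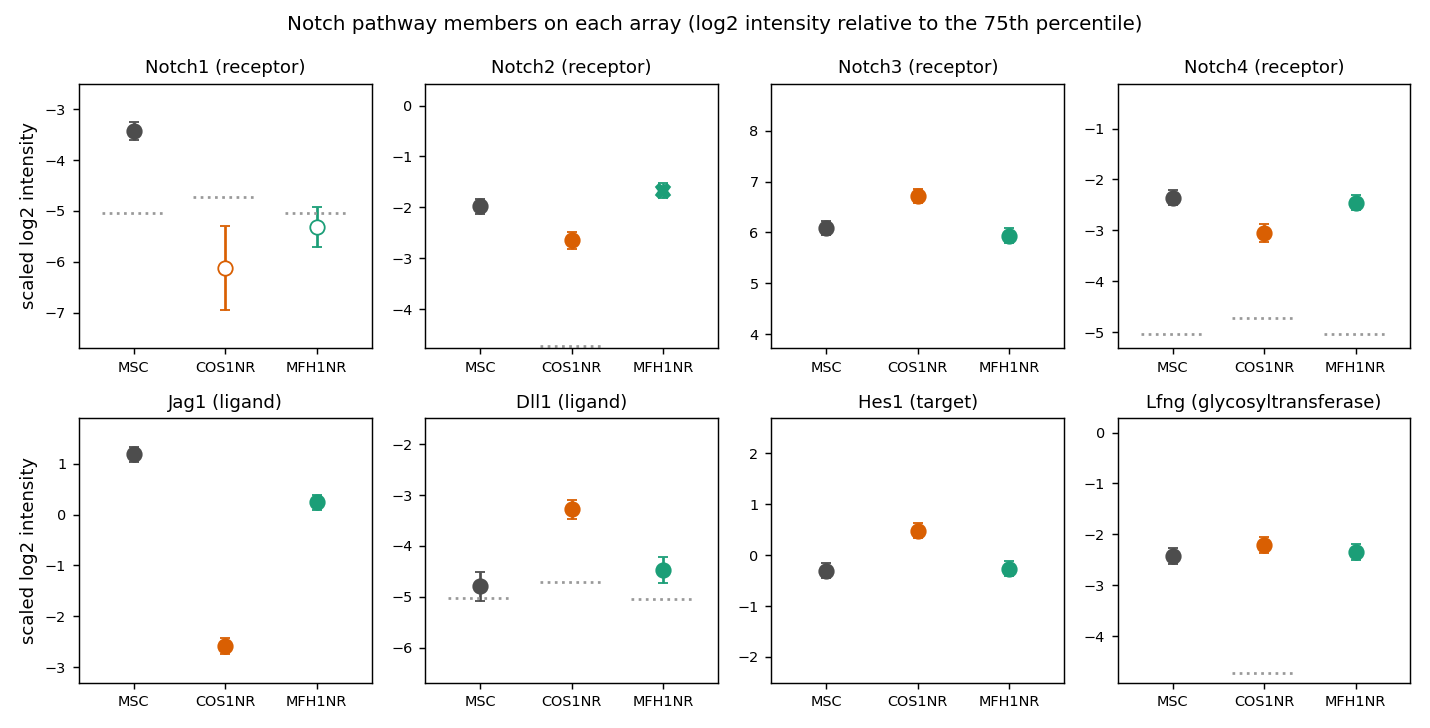
Scaled log2 intensity (log2 of the intensity over the 75th percentile of its array) of the 8 measured members in MSCs, COS1NR and MFH1NR, 1 array each. Bars are the error of the spot from the scanner software, open circles are not well above background, the cross is a spot called non-uniform, and dotted lines mark the lowest value well above background on that array where it falls inside the panel. All panels span the same height, and the longest distance between arrays is that of Jag1, from 1.18 in MSCs to -2.58 in COS1NR.

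Among the receptors, Notch1 passed the background limit on the MSC array alone, and the other receptors differed by less than 2-fold wherever they could be compared after scaling by the 75th percentile. Notch1, the founding member of the family in mammals, gave 54.7 ± 6.93 on the MSC array. The spot read 11.1 ± 6.41 for COS1NR and 25.0 ± 6.84 for MFH1NR, neither of them well above background. The lowest intensity with that call was 29.4 in COS1NR and 30.1 in MFH1NR, so only a bound can be given. After scaling, MSCs exceeded COS1NR by at least 2.44-fold and MFH1NR by at least 3.07-fold. Both bounds dropped under 2-fold when arrays were not scaled, to log2 ratios of -0.90 for COS1NR and -0.86 for MFH1NR over MSCs, and normexp gave -0.98 for COS1NR. The lines cannot be set against each other for Notch1.

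Notch2 had an intensity of 149.2 ± 15.4 in MSCs and 123.2 ± 13.9 in COS1NR, a ratio of 0.629 after scaling. The log2 ratio of -0.67 exceeded its error of 0.22 from the spots, and it was under 2-fold. Without scaling it shrank to -0.28. The MFH1NR spot of Notch2 was called non-uniform by the software and left out.

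Notch3 was well above background on every array, with 39971 ± 3997 in MSCs, 81361 ± 8136 in COS1NR and 60828 ± 6083 in MFH1NR. After scaling, COS1NR stood highest, and MSCs and MFH1NR were next to each other. The ratio of COS1NR to MSCs was 1.55, with a log2 ratio of 0.63 and an error of 0.20, and that of MFH1NR to COS1NR was 0.582. MFH1NR had a ratio to MSCs of 0.902, a log2 ratio of -0.15 that was within its error of 0.20 and turned to 0.61 without scaling. Without scaling, the ratio of COS1NR to MSCs was just past 2-fold, at a log2 ratio of 1.03. When spike-in probes set the scale, an alternative added after seeing the data, the log2 ratio of MFH1NR to COS1NR shrank from -0.78 to -0.03, within the error of the spots, so the difference between the lines depended on the scaling.

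Notch4, a receptor known from endothelial cells, had 114.8 ± 12.1 in MSCs, 93.3 ± 11.1 in COS1NR and 181.4 ± 19.2 in MFH1NR. COS1NR was lowest after scaling, with a ratio to MSCs of 0.618 and a log2 ratio of -0.69 against an error of 0.23. That log2 ratio shrank to -0.30 without scaling. MSCs and MFH1NR did not differ beyond the error of the spots, with a ratio of 0.936, and the log2 ratio of -0.10 became 0.66 without scaling. Between the lines its log2 ratio of 0.60 was past 2-fold at 1.35 with spike-in scaling. Endothelial markers were well above background for 4, 3 and 1 of 9 genes in MSCs, COS1NR and MFH1NR, and their part in the values of Notch4 was not tested.

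Among the ligands, Jag1 was lower and Dll1 higher in COS1NR than in MSCs, and Jag1 had the largest measured ratio of all members. Jag1, a Jagged ligand that activates the receptors from the neighboring cell, gave 1339 ± 134 for MSCs, 129.1 ± 14.5 for COS1NR and 1174 ± 118 for MFH1NR. MSCs were highest, MFH1NR followed at a ratio of 0.520, and COS1NR was far below both. Jag1 was 13.6-fold lower in COS1NR than in MSCs, with a log2 ratio of -3.77 and an error of 0.22. It was 7.08-fold higher in MFH1NR than in COS1NR, on the same slide, with a log2 ratio of 2.82. Across the alternative settings, some of which cannot move a gene with 1 probe, these log2 ratios lay between -3.92 and -3.24 and between 2.28 and 3.58. The difference between MFH1NR and MSCs, 1.92-fold, was just under 2-fold, and its log2 ratio of -0.94 shrank to -0.19 without scaling. Beside this, macrophage markers summed to 168.7, 9.31 and 4.75 on the arrays of MSCs, COS1NR and MFH1NR, and the sums of pericyte and smooth muscle markers were 236.6, 5.0 and 14.0. Single markers had other orders, as Mcam was higher in MFH1NR than in MSCs and Des higher in COS1NR than in MFH1NR. Their part in the result was not tested.

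Dll1, a Delta ligand, was well above background on all arrays at low intensities, 21.2 ± 4.27 in MSCs, 79.6 ± 9.996 in COS1NR and 44.8 ± 7.66 in MFH1NR. The intensity in MSCs lay close to the background limit of 18.0 there. COS1NR was highest, at a ratio to MSCs of 2.86, with a log2 ratio of 1.51 and an error of 0.34. MFH1NR was 2.28-fold lower than COS1NR and not apart from MSCs beyond the error of the spots, with a log2 ratio of 0.32 and an error of 0.38. With a normexp background correction (offset 50), also added after seeing the data, the log2 ratio of COS1NR to MSCs was 0.30. That of MFH1NR to MSCs turned to -0.20 with it, and was 1.08, past 2-fold, without scaling and 0.92 with spike-in scaling. The offset is added to every intensity and by itself pulls ratios of probes of low intensity toward 0. The log2 ratio between the lines, -1.19, came under 2-fold without scaling (-0.83), with normexp (-0.50) and with spike-in scaling (-0.44). The line with the lowest Jag1 was therefore the one with the highest Dll1.

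Lfng, the Fringe enzyme that extends fucose on the receptor and shifts its preference between ligand families, differed little after scaling. Intensities were 109.4 ± 11.6 for MSCs, 167.0 ± 17.9 for COS1NR and 195.5 ± 20.6 for MFH1NR. Scaled, COS1NR stood at 1.16 and MFH1NR at 1.06 times MSCs. Both log2 ratios, 0.22 and 0.08, were within the error of 0.22 of the spots, and the one between the lines, -0.13, was too. These values depended on the scaling. The log2 ratio of MFH1NR to MSCs was -0.11 with normexp, 0.84 without scaling and 0.68 with spike-in scaling, that of COS1NR to MSCs was 0.61 without scaling, and that between the lines 0.62 with spike-in scaling.

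Hes1, the basic helix-loop-helix repressor most used as a readout of the pathway, had 478.2 ± 48.0 in MSCs, 1081 ± 108 in COS1NR and 829.1 ± 83.2 in MFH1NR. COS1NR was highest after scaling, with a ratio to MSCs of 1.72 and a log2 ratio of 0.78 against an error of 0.20. MFH1NR and MSCs were level, with a log2 ratio of 0.04 that was -0.07 with normexp, 0.79 without scaling and 0.64 with spike-in scaling. None of the differences of Hes1 reached 2-fold after scaling, while the ratio of COS1NR to MSCs did without scaling, at a log2 ratio of 1.18. The log2 ratio of MFH1NR to COS1NR was -0.74 and moved to 0.01 with spike-in scaling.

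**Figure D2:**
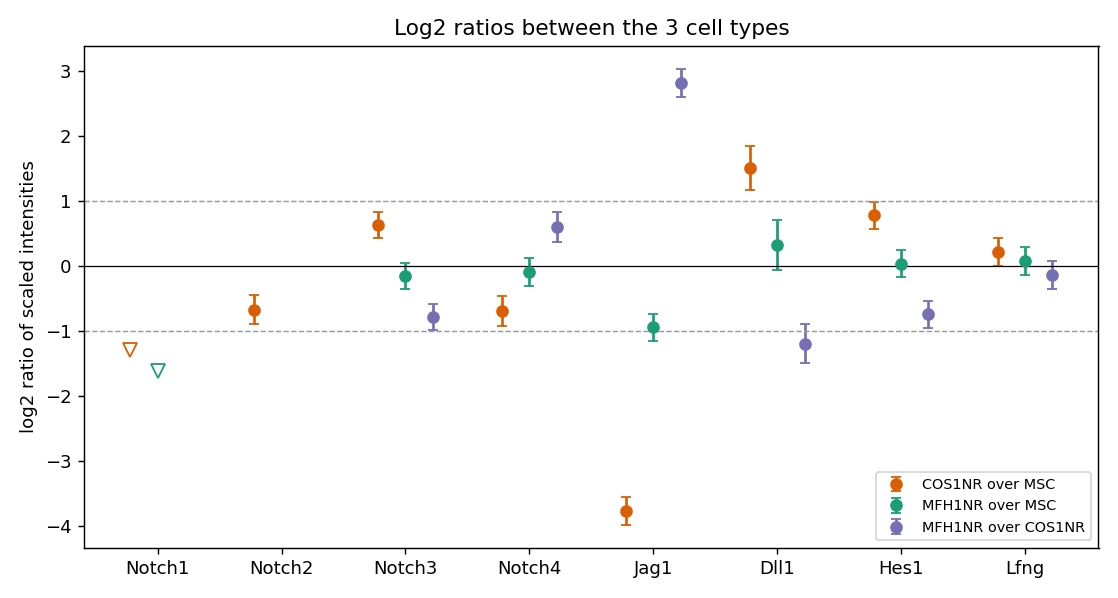
Log2 ratios of scaled intensity for the 8 measured members, with the error of the spots as bars and dashed lines at 2-fold. Open triangles for Notch1 are bounds, and Notch2 has no ratio with MFH1NR. Jag1 in COS1NR over MSCs, at -3.77, and in MFH1NR over COS1NR, at 2.82, lie farthest from 0.

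The bases before the start of transcription are shown for the members that hold the letters of the Rbpj site and for Jag1, which had the largest difference. Promoters of 9 of the 10 members were in the RefSeq table of the GRCr8 assembly, and the 250 bases before the start were searched on both strands for GTGGGAA, the core of the Rbpj site, and for TGGGAA, which is part of it. GTGGGAA was present in Hes1, Lfng and Dll1 and in 5.27% of all 33469 promoters, and TGGGAA was in 4 of the 9 members, the fourth being Notch4, and in 22.1% of all. Each of Hes1, Lfng and Dll1 held GTGGGAA once and TGGGAA in 1 further place, as did 1.13% of all promoters with at least 2 places. In Hes1 the places are on the same strand and close together, from -124 to -118 and from -109 to -104 before the start. The windows lie at chr11:84213046-84213295 on the minus strand, chr12:19152919-19153168 on the minus strand, chr1:64993275-64993524 on the minus strand and chr3:144894884-144895133 on the minus strand. They read 5′ to 3′ along the gene, and capitals mark both motifs on either strand.
Hes1: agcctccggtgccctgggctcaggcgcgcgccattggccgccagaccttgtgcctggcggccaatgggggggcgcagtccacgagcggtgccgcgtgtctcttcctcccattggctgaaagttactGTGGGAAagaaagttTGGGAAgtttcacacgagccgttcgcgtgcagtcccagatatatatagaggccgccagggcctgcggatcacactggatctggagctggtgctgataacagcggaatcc
Lfng: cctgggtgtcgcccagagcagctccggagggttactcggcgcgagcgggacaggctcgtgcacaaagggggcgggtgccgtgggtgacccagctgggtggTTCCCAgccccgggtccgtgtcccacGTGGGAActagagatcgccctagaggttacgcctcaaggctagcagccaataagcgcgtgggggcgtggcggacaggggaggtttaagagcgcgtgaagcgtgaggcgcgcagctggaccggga
Dll1: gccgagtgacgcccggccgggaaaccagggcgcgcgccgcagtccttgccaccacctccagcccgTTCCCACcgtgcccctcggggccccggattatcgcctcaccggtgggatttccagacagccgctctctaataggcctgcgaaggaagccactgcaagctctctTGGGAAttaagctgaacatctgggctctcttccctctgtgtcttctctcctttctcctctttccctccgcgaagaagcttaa
Jag1: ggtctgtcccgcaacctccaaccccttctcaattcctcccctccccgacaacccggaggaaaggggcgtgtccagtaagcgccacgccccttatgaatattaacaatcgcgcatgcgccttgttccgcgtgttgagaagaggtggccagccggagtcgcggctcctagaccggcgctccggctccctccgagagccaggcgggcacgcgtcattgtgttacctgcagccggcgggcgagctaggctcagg

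A match of letters in this window is a description of the sequence and does not show that a factor binds there.

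Of the 8 members compared between COS1NR and MSCs, 1 was at least 2-fold higher in COS1NR (Dll1) and 2 were at least 2-fold lower (Jag1 and Notch1). These shares were 12.5% and 25.0%, against 20.6% of 9721 genes higher and 20.0% lower by the same rule. In MFH1NR, 0 of 7 members were at least 2-fold higher than in MSCs and 1 was lower (Notch1, 14.3%), against 19.3% and 21.6% of 9830 genes. Between the lines, 1 of 6 members was at least 2-fold higher in MFH1NR (Jag1) and 1 lower (Dll1), 16.7% each, against 12.4% and 15.1% of 9429 genes. A single gene makes up 12.5% to 16.7% of the members compared, and the shares of members were within 1 or 2 genes of the shares over all genes. With Notch1 at its bound, the median log2 ratio of the members was -0.23 in COS1NR over MSCs, -0.10 in MFH1NR over MSCs and -0.44 in MFH1NR over COS1NR, and the medians over all genes were 0.10, 0.02 and -0.08.

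**Figure D3:**
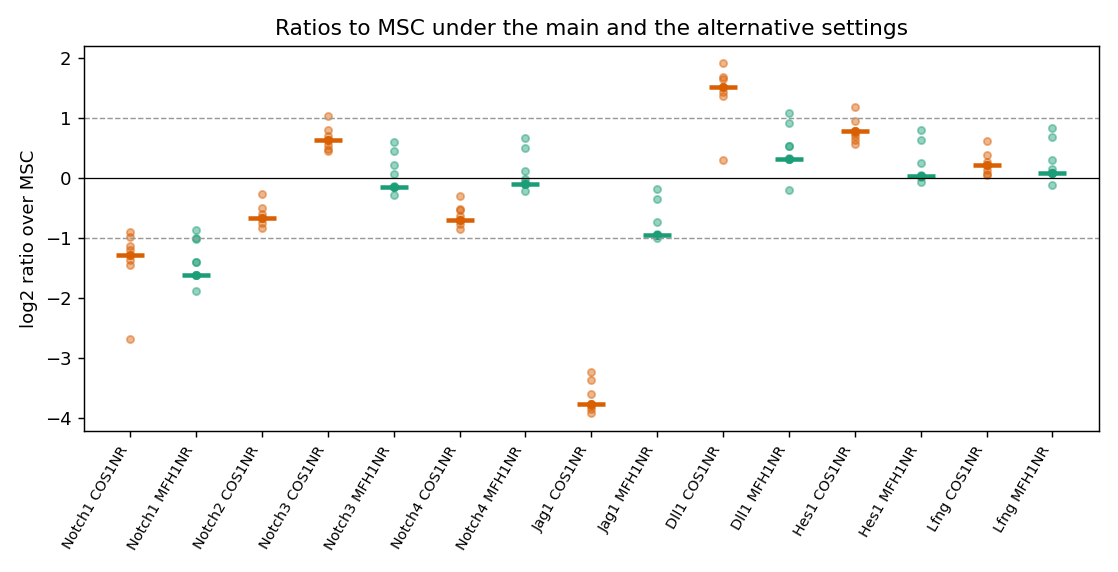
Log2 ratio over MSCs of each member in COS1NR (orange) and MFH1NR (green), with the value as reported as a bar and the alternative settings as points, and dashed lines at 2-fold. The points of Jag1 in COS1NR stay between -3.92 and -3.24, while those of Notch3, Notch4, Dll1, Hes1 and Lfng in MFH1NR lie on both sides of 0.

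A wider list of 54 genes of the pathway was set beside the members, and 36 of them had a named probe. In COS1NR over MSCs, 1 of 34 genes compared was at least 2-fold higher (2.94%, against 20.6% of all genes) and 5 were lower (14.7%, against 20.0%). In MFH1NR over MSCs, 5 of 36 were higher (13.9%, against 19.3%) and 7 lower (19.4%, against 21.6%). In MFH1NR over COS1NR, 5 of 34 were higher (14.7%, against 12.4%) and 5 lower (14.7%, against 15.1%). These shares were not tested, and they depended on the scaling. Without scaling, 11 genes were higher and 2 lower in MFH1NR over MSCs, and with spike-in scaling 12 were higher and 1 lower in MFH1NR over COS1NR. The median log2 ratios of the list were -0.08, -0.21 and -0.15 in this order. Of the 28 ratios of at least 2-fold in this list, 15 came under 2-fold in at least 1 of the other scalings and the normexp correction. None of these settings turned a ratio to the other sign. Scalings that moved all genes alike by less than 2-fold could not have done so.

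Of the 4 other ligands with a probe, Dll3 was measured at least 2-fold higher in MFH1NR than in MSCs, Cntn1 and Dlk1 were so as bounds, since they were dim in MSCs, and Dlk2 was at least 2-fold lower, against 19.3% of all genes higher and 21.6% lower. Cntn1, a contactin that can bind Notch, had an intensity of 512.9 in MFH1NR and was not well above background in MSCs or COS1NR, so it was at least 16.9-fold and at least 13.6-fold higher in MFH1NR. Dll3, a divergent Delta protein, had 119.8 in MSCs, 94.5 in COS1NR and 447.2 in MFH1NR, 2.21-fold above MSCs and 3.68-fold above COS1NR. Dlk1, a Delta-like protein without the receptor-activating domain, was at least 3.08-fold higher in MFH1NR than in MSCs and 2.16-fold higher than in COS1NR. Its relative Dlk2 went the other way and was 3.07-fold lower in COS1NR and 2.34-fold lower in MFH1NR than in MSCs. With normexp, Dll3 and Dlk1 in MFH1NR and Dlk2 in both lines were under 2-fold relative to MSCs, as was Dlk1 between the lines, and Dlk2 in MFH1NR was also under 2-fold without scaling and with spike-in scaling.

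In the nuclear complex, Rbpj, the DNA-binding partner of the cleaved receptor, had 2019 in MSCs, 3241 in COS1NR and 8463 in MFH1NR. MFH1NR was 2.48-fold above MSCs and 2.03-fold above COS1NR by this probe, while a dimmer second probe gave log2 ratios of 1.06 and 0.67, the latter under 2-fold. The other 5 genes of the complex with a probe, Maml3, Snw1, Crebbp, Kat2a and Kat2b, were within 2-fold in every comparison after scaling by the 75th percentile. The 5 corepressors compared, Hdac1, Hdac2, Ctbp1, Ctbp2 and Cir1, were within 2-fold after scaling by the 75th percentile. In MFH1NR over MSCs, 2 of them were above 0 and 3 below in log2, and all 5 were above 0 without scaling and with spike-in scaling.

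Of 6 genes of receptor processing with a probe, 2 were lower by at least 2-fold in MFH1NR relative to MSCs, against 21.6% of all genes. The log2 ratios of the 6 ran from -1.36 to -0.68, and 1 of them was above 0 without scaling. The 2 were Adam17, an ADAM protease that can cut the receptor at the cell surface, at 2.57-fold, and Furin, which matures the receptor, at 2.34-fold. Both were under 2-fold without scaling and with spike-in scaling. Aph1a and Psenen, subunits of gamma-secretase, were 3.06-fold and 2.28-fold lower in MFH1NR than in COS1NR, and both were under 2-fold with spike-in scaling, Psenen also without scaling. Adam17 was 2.42-fold lower between the lines too, under 2-fold in the same 2 settings. Ncstn, another subunit, was within 2-fold throughout. Aph1b, another form of the Aph1 subunit, was 2.80-fold lower in COS1NR than in MSCs. Mib1, the ubiquitin ligase that drives ligand uptake, was 2.42-fold lower in MFH1NR than in MSCs, and under 2-fold with normexp, without scaling and with spike-in scaling. It was 2.07-fold lower in MFH1NR than in COS1NR, which came under 2-fold in 5 alternative settings. All 4 enzymes that add sugars to the receptor, Mfng, Rfng, Pofut1 and Poglut1, gave ratios within 2-fold or bounds under 2-fold after the same scaling.

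Of the other Hes and Hey genes, 2 of 5 compared were at least 2-fold below MSCs in COS1NR, against 20.0% of all genes. In MFH1NR, 2 of 6 were below MSCs and 1 above, against 21.6% and 19.3%. Hey2, a repressor of the Hey family known from vascular smooth muscle and heart, had 219.5 in MSCs, 85.2 in COS1NR and 80.0 in MFH1NR, 3.38-fold and 4.63-fold below MSCs. A second probe of Hey2 had 136.0 in MSCs and was not well above background in either line, which put MSCs at least 6.08-fold above COS1NR and at least 7.63-fold above MFH1NR by that probe. Heyl was within 2-fold, with log2 ratios of -0.69 and -0.95. Hes2 passed the background limit on the MSC array alone, which put MSCs at least 3.24-fold above COS1NR and at least 4.07-fold above MFH1NR. Without scaling, log2 ratios of MFH1NR to MSCs shrank from -2.21 to -1.46 for Hey2 and from -2.03 to -1.27 for Hes2, still past 2-fold. Hes3 passed it in MFH1NR alone, at least 3.86-fold above MSCs, a bound that was under 2-fold with normexp. Hes5, a common neural target, had low intensities and was level, with log2 ratios of -0.08 and 0.02. Hes7, known from the segmentation clock, was within 2-fold, with a log2 ratio of -0.02 for COS1NR over MSCs, -0.88 for MFH1NR over MSCs and -0.86 between the lines. Its probe read 26774 in MSCs, 34771 in COS1NR and 24552 in MFH1NR, far above that of Hes1, and no second probe of Hes7 was named. In COS1NR, Hes1 was thus 1.72-fold above MSCs while Hey2 was 3.38-fold below. The summed pericyte and smooth muscle markers reached 5.0 there, against 236.6 for MSCs. For MFH1NR that sum was 14.0, with Hey2 4.63-fold below MSCs. Whether such cells had a part in the Hey2 ratios was not tested. Of the regulators of receptor turnover, Dtx4, a Deltex ubiquitin ligase, was 2.90-fold higher in COS1NR than in MSCs and 3.81-fold lower in MFH1NR than in COS1NR. Numbl, of the Numb family of Notch inhibitors, was 3.17-fold lower in COS1NR and 2.34-fold lower in MFH1NR than in MSCs, the latter under 2-fold without scaling and with spike-in scaling. Numb itself had log2 ratios of 0.33 and 0.02, and Dtx2, another Deltex gene, of -0.08 and 0.02.

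**Figure D4:**
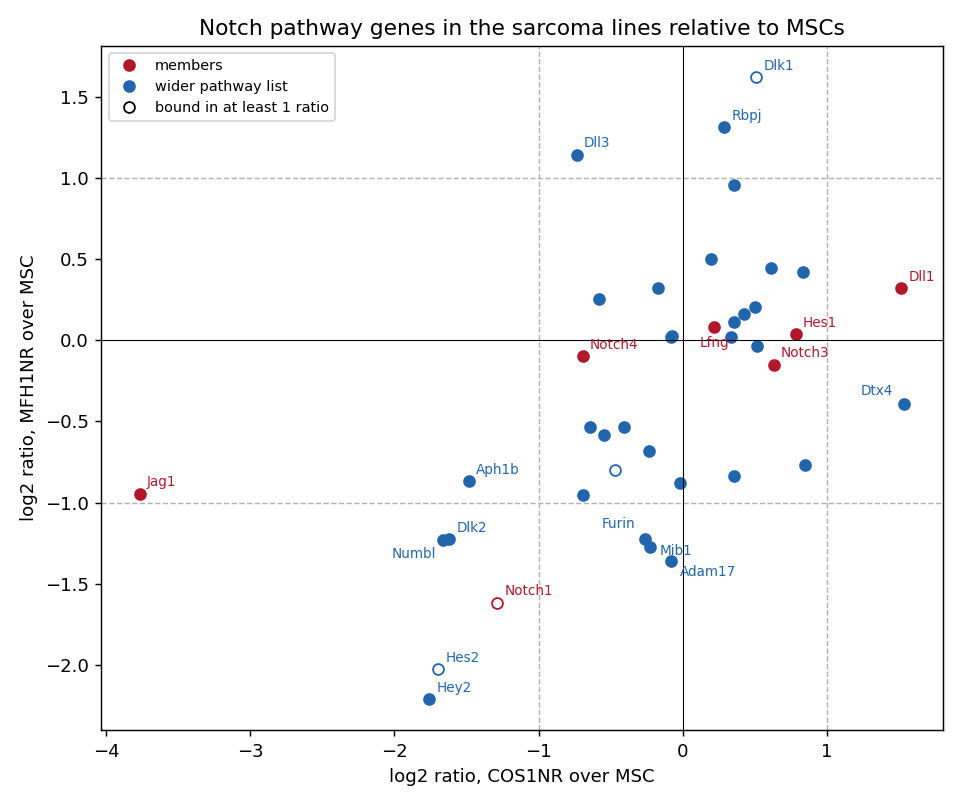
Log2 ratio over MSCs in COS1NR (horizontal) and MFH1NR (vertical) for members (red) and the wider pathway list (blue), with dashed lines at 2-fold, open circles for bounds, and names for members and genes past 2-fold. Both axes share the MSC array. Genes dim in both MSCs and COS1NR, such as Cntn1 and Hes3, are not drawn, nor is Notch2, whose MFH1NR spot was left out. Jag1 lies far to the left at -3.77, and Rbpj, Dll3 and Dlk1 lie above 2-fold in MFH1NR only.

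Jag1 had the widest range among members well above background on all arrays, 3.77 in log2, against 1.51 for Dll1 and 0.22 to 0.78 for Hes1, Notch3, Notch4 and Lfng. Among 7932 genes that passed the background limit on every array, the 5 nearest to Jag1 in their log2 ratios of both lines to MSCs were Pxdc1, Pdlim2, Septin11, Fstl1 and Pcp4l1. Their distances ran from 0.15 to 0.34 in log2. This likeness rests on 3 arrays.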

How the data were processed

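Cy3-labeled cRNA of MSCs, COS1NR and MFH1NR was hybridized to 1 Agilent whole rat genome array each. The authors deposited intensities of Agilent Feature Extraction (10.5.1.1 in the file headers, 9.1 in the labels), background-subtracted and detrended within each array, with the design annotated on rn4. The table of the whole series held the same values. Control spots and spots called outliers were left out, and log2 intensities were scaled by the 75th percentile of the array. RefSeq accessions named 16815 of 41012 probes through a gene table of GRCr8. The brightest probe (mean log2 intensity) stood for a gene, and where it was not well above background on 1 array, that side was raised to the lowest intensity with this call there. Genes dim on both arrays were not compared. A difference of at least 2-fold was counted, and no test was made. The 10 members are all named, together with genes of the wider list at least 2-fold apart, those needed to describe a group, and the 5 genes nearest to the member with the widest range. Members and lists were chosen with earlier results of these data known, and 1 further pathway gene was left out of the wider list and is not reported here. Marker lists of T cells and B cells were also read: at most 3 of 5 and 0 of 2 with a probe were well above background on an array. Python 3.11.15, numpy 2.4.6, pandas 2.3.3, matplotlib 3.10.9, R 4.3.3 and limma 3.58.1 (normexp) were used. Precision is limited by having 3 arrays.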

Additional observations from a re-analysis of the deposited data

Results flagged for a closer look

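The Notch2 spot on the MFH1NR array was left out of the comparisons because the software called it non-uniform, but it was well above background, at an intensity of 312.2. With this spot, Notch2 in MFH1NR had a log2 ratio of 0.31 to MSCs and of 0.98 to COS1NR, just under 2-fold. No second probe of Notch2 was named.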

How the results depend on the processing

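Of 72 counts of members under an alternative, 57 were within 1.5 times the count reported. Without scaling between arrays, in COS1NR against MSCs 3 members were at least 2-fold higher and 1 lower, 1 was higher and 0 lower in MFH1NR than in MSCs, and 0 lower in MFH1NR than in COS1NR. This setting moved the median log2 ratio of all genes by 0.39 in COS1NR over MSCs, 0.76 in MFH1NR over MSCs and 0.35 in MFH1NR over COS1NR. Median scaling moved the first 2 by 0.16 and 0.22, and spike-in scaling moved the 3 by -0.14, 0.60 and 0.74. With a 3-fold threshold, 0 members were higher in COS1NR than in MSCs, 1 was lower, and 0 were lower in MFH1NR than in COS1NR. With probes well above background on all arrays, which leaves out Notch1, 1 member was lower in COS1NR and 0 in MFH1NR than in MSCs. With normexp (offset 50), COS1NR had 0 members higher than MSCs and 1 lower, and 0 were lower in MFH1NR than in COS1NR. With spike-in scaling on 7 probes, 2 were higher and 0 lower in MFH1NR than in COS1NR. Most counts of the wider list moved with the scaling. Against MSCs, the count of genes higher in MFH1NR went from 5 to 11 without scaling and to 9 with spike-in scaling, and that of genes lower from 7 to 2 in both and at a 3-fold threshold. With probes well above background on all arrays, the 5 higher came to 2, and so they did with normexp. The count higher in COS1NR went from 1 to 4 without scaling. Between the lines, the counts of genes higher and lower in MFH1NR, 5 each, came to 12 and 1 with spike-in scaling. The count lower in COS1NR than in MSCs stayed at 5 under every scaling. Normexp on the median spot intensity and spike-in scaling were chosen after the data were seen, and normexp on the mean spot intensity was not run. Where no cause is named, the cause was not tested. Several alternatives (the table of the whole series, the mean over probes, outlier spots kept) could not move a member with 1 probe and no outlier spot. Of the 6 member ratios of at least 2-fold, 0 changed sign. Scalings that moved all genes alike by less than 2-fold could not have changed it. Under alternatives, 7 values were under 2-fold, all of Notch1 or Dll1. Probes of low intensity such as those of Notch1 and Dll1 lie close to the background limit, where precision is lowest. No paired analysis was possible because each group has 1 array.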
